A study of Mus musculus with 6 samples.

Results

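The 38 genes described here are genes of blood and lymphatic vessel endothelium and of the signals that guide vessel growth, taken from a given list of symbols and matched to the gene column of the deposited tables. All 38 were found among 21936 genes. They were measured by RNA sequencing of whole uterus on gestational day 4, counted from the day of the vaginal plug as day 1, in 3 libraries labelled Mettl3 d/d and 3 labelled Mettl3 f/f. The mice were 6 to 8 weeks old and pregnant after mating. The product of Mettl3 is the methyltransferase that places N6-methyladenosine in RNA. By common notation f/f is a floxed gene and d/d its deleted form, but the labels name no Cre driver and no deleted exon, so the cells in which the gene would be lost are not known here. The labels do not state whether each library is another animal. All p-values therefore refer to the spread between these 6 libraries, part of which may be technical.

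Endothelial cells line the vessels and carry the receptor tyrosine kinases through which growth factors of the VEGF and angiopoietin families act. VEGF ligands made by neighbouring cells bind Flt1, Kdr and Flt4 with neuropilins as co-receptors, and transcription factors of the ETS and SOX families set endothelial gene expression. In the mouse uterus the endometrial vessels become leaky and grow around the time of implantation.

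Values are FPKM, fragments per kilobase of gene scaled to the library's size, and are a level per length. Differences are log2 fold changes, d/d minus f/f, of log2(FPKM + 1), which understates changes of genes at low levels. A gene was called changed at a limma p, adjusted by the Benjamini-Hochberg method over all 12979 genes tested, under 0.05. Genes were tested where they reached 1 FPKM in at least 3 of the 6 libraries. This held for 37 of the 38 genes. The exception was Pdpn, a gene of lymphatic endothelium and mesothelium, which was listed at 0 in all 6 libraries. A 0 in these tables may be a failed estimate, so Pdpn is not taken as absent.

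Mettl3 itself stood at 42.9, 30.1 and 46.5 FPKM in d/d replicates 1, 2 and 3, against 30.3, 29.8 and 26.3 FPKM in f/f replicates 1, 2 and 3. Its level did not fall with the d/d label (log2 fold change 0.43, limma adjusted p = 0.202). Reads from exons that a deletion leaves in place enter this value too, so it is no check of the labels, on which every direction below rests. The libraries labelled d/d were less alike than the f/f libraries, with Spearman correlations over tested genes of 0.870 to 0.916 among d/d libraries and 0.978 to 0.989 among f/f libraries. Genes varied more between d/d libraries, with a median SD over genes of 0.301, than between f/f libraries, with 0.126 (log2 scale). The absolute depth is unknown. The relative depth, estimated from the steps between low values, was 0.936 to 1.01 times that of f/f replicate 1.

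Of the 37 genes tested, 2 fell in the labelled d/d uteri, Cdh5 and Ednrb, and 0 rose, with 35 not called by limma. That is 5.41% of the members called lower, against 3.81% of all genes tested, and 0% called higher, against 3.49% of all genes tested. At an unadjusted p under 0.05, 13 members had lower and 2 had higher values in d/d libraries, against 13.6% and 13.1% of all genes tested. In 13 members (35.1%) every d/d library lay below every f/f library, against 17.8% of all genes tested. In 2 members (5.41%), Sox7 and Nrp1, every d/d library lay above every f/f library, against 18.1% of all genes, and over both directions 35.9% of all genes were without overlap. The log2 fold change was negative in 28 members and positive in 9, against 48.1% and 51.9% of all genes, and its median was -0.36, against 0.02 over all genes tested. Leaving out any 1 of the f/f libraries left 0 members called lower (5, 5 and 13 at an unadjusted p under 0.05 for replicates 1, 2 and 3). Those fits called only 0, 0 and 20 genes lower in the whole series, so this count says little about the members. The count of members called lower was 1 when d/d replicate 3 was left out and 4 when d/d replicate 2 was. In turn 1 member was called higher when d/d replicate 1 was left out, and 1 when d/d replicate 2 was. The median of the members was -0.67 without d/d replicate 2, -0.19 without d/d replicate 3 and -0.22 without f/f replicate 2.

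**Figure D1:**
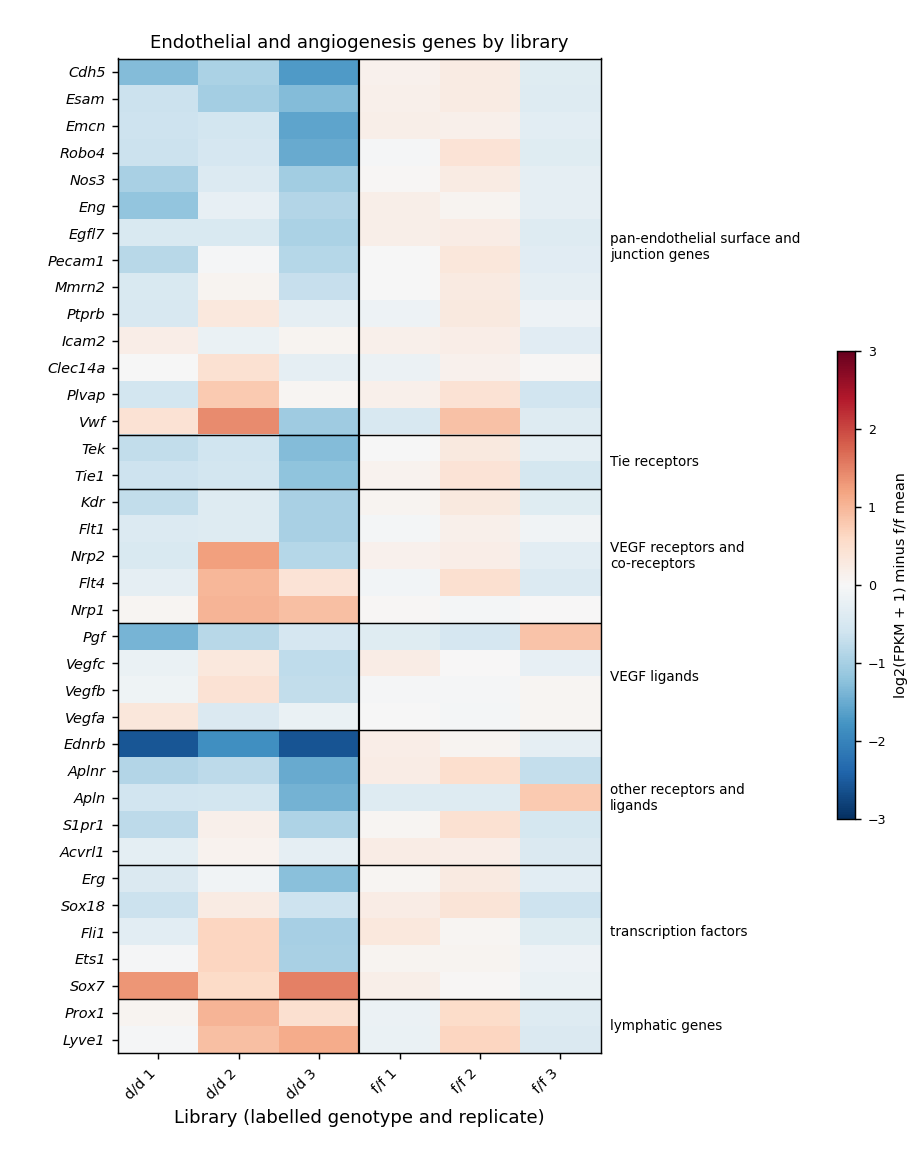
Colour gives log2(FPKM + 1) minus the mean of the 3 f/f libraries for the 37 tested genes (rows, by role) in each library (columns, d/d left of f/f). Ednrb is low and Sox7 high in all 3 d/d libraries, while Cdh5, Emcn and Robo4 are lowest in d/d replicate 3.

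The libraries were not uniform within a genotype. Among the d/d libraries, replicate 2 had the highest value for 31 of the 37 genes and replicate 3 the lowest for 24. Among the f/f libraries, replicate 2 was highest for 25 genes and replicate 3 lowest for 30. The median of the 14 surface and junction genes, relative to the f/f mean on the log2 scale, was -0.58, -0.23 and -0.92 in d/d replicates 1, 2 and 3, against 0.08, 0.24 and -0.34 in f/f replicates 1, 2 and 3, so d/d replicate 2 lay within the range of the f/f libraries. The name of this group is loose, since it also holds an enzyme gene, Nos3, and genes of secreted or matrix proteins, Egfl7, Vwf and Mmrn2. In bulk tissue, fewer cells of a type and less RNA per cell cannot be told apart.

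Among the surface and junction genes of endothelium, Cdh5 was called lower and 13 did not pass the test. Cdh5 (ENSMUSG00000031871, chromosome 8, 104101625 to 104144511, plus strand, GRCm38) encodes VE-cadherin, the adhesion protein of endothelial junctions. It was at 24.0, 30.8 and 17.9 FPKM in d/d replicates 1 to 3, against 65.9, 72.0 and 46.6 FPKM in f/f replicates 1 to 3. The genotypes did not overlap, and the lowest f/f library was above the highest d/d library. The means were 24.2 ± 6.45 FPKM in d/d and 61.5 ± 13.3 FPKM in f/f libraries (SD, n = 3 each), a ratio of 0.393. On the log2 scale Cdh5 fell by 1.32 (SE 0.25), with a 95% interval of -1.92 to -0.72 and a limma adjusted p = 0.0343. The two-sided p of the exact permutation test was 0.1, and 3 against 3 libraries cannot give a smaller value. The call ended with any of the f/f libraries left out (in their order, adjusted p = 0.164, 0.159 and 0.094), without d/d replicate 1 or 3 (0.0574 and 0.0516), with no filter on low values (0.0519) and with a spread for each genotype (0.0564). An antisense gene, Gm29682, overlaps Cdh5 by 4249 bp, and the sources used here do not give whether reads were counted by strand.

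A further 5 surface and junction genes had all d/d libraries below all f/f libraries without passing the test. Esam, an adhesion molecule gene of endothelial tight junctions, was at 46.0, 35.2 and 28.9 FPKM in d/d libraries, against 80.2, 86.0 and 55.3 FPKM in f/f libraries. Its log2 fold change was -0.99 (95% interval -1.56 to -0.42, limma adjusted p = 0.0601), and it passed without d/d replicate 1 (0.0430) and with upper quartile scaling (0.0499). Emcn, the gene of the sialomucin endomucin of capillaries and veins, was at 56.2, 58.5 and 28.1 FPKM in d/d libraries, against 97.8, 95.5 and 68.9 FPKM in f/f libraries. Robo4, a gene of a roundabout receptor that steadies vessels, was at 14.3, 15.7 and 7.33 FPKM in d/d libraries, against 22.1, 30.6 and 17.4 FPKM in f/f libraries. For these genes d/d replicate 3 was the lowest library in all, and the gap between the genotypes was set by f/f replicate 3. Nos3, the endothelial nitric oxide synthase gene, averaged 4.98 ± 1.48 FPKM in d/d and 9.39 ± 1.83 FPKM in f/f libraries (SD, n = 3 each), which is -0.81 on the log2 scale (limma adjusted p = 0.0870), and it passed without d/d replicate 2 (0.0365). Egfl7, a gene of a secreted endothelial factor, averaged 123.9 ± 23.5 FPKM in d/d and 192.3 ± 41.3 FPKM in f/f libraries and was the most abundant of the 38 genes in both genotypes (adjusted p = 0.143). Egfl7 shares 6482 bp with Gm20532 on the same strand and Nos3 shares 17423 bp with the antisense gene Gm15587, so their values are uncertain.

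The other 8 genes of this group overlapped between the genotypes. Pecam1, the gene of the platelet and endothelial adhesion molecule CD31, was at 37.6, 66.3 and 37.0 FPKM in d/d libraries, against 67.4, 86.1 and 53.7 FPKM in f/f libraries (log2 fold change -0.58, limma adjusted p = 0.252). Eng, a co-receptor gene of the TGF-beta family, was at 29.7, 58.0 and 36.9 FPKM in d/d libraries, against 78.7, 73.3 and 57.1 FPKM in f/f libraries. Only d/d replicate 2 reached the f/f range in either gene, and without it Eng passed (log2 fold change -1.04, adjusted p = 0.0328). Icam2, Clec14a, Plvap and Ptprb had log2 fold changes of 0.02, 0.06, 0.09 and -0.14, with 95% intervals of -0.45 to 0.50, -0.49 to 0.60, -0.88 to 1.06 and -0.77 to 0.49, and their signs turned under some alternatives. Plvap, the gene of the diaphragm protein of fenestrated endothelium, was at 29.2, 75.0 and 44.9 FPKM in d/d libraries, against 48.5, 58.8 and 28.6 FPKM in f/f libraries, and shares 1819 bp with Gtpbp3 on the other strand. Vwf, the von Willebrand factor gene, varied widely within both genotypes, at 30.9, 61.8 and 10.2 FPKM in d/d libraries, against 15.8, 42.5 and 17.0 FPKM in f/f libraries. Mmrn2, a matrix protein gene of endothelium, was at -0.36 on the log2 scale (adjusted p = 0.397).

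The levels of the other surface and junction genes, Kdr, Tek and Tie1 were also set against that of Pecam1 in the same library. The Cdh5 level was 0.637, 0.464 and 0.483 times that of Pecam1 in d/d replicates 1 to 3, against 0.977, 0.836 and 0.867 times in f/f replicates 1 to 3. The Plvap level was 0.778, 1.13 and 1.21 times that of Pecam1 in d/d libraries, against 0.719, 0.683 and 0.532 times in f/f libraries. The ratio thus lay below all f/f libraries for Cdh5 and above them for Plvap. Nos3 was also below without overlap, and Clec14a, Ptprb and Mmrn2 were above. The remaining genes overlapped, Kdr, Tek and Tie1 among them. Lack of overlap is common in these data, at 35.9% of all genes tested by their levels, so alone it says little about these ratios. The ratio of Tie1 to Tek was 2.44, 2.30 and 2.45 in d/d libraries, against 2.32, 2.33 and 1.83 in f/f libraries. These ratios were formed after the values were seen and were not tested, and Pecam1 is also expressed by leukocytes.

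**Figure D2:**
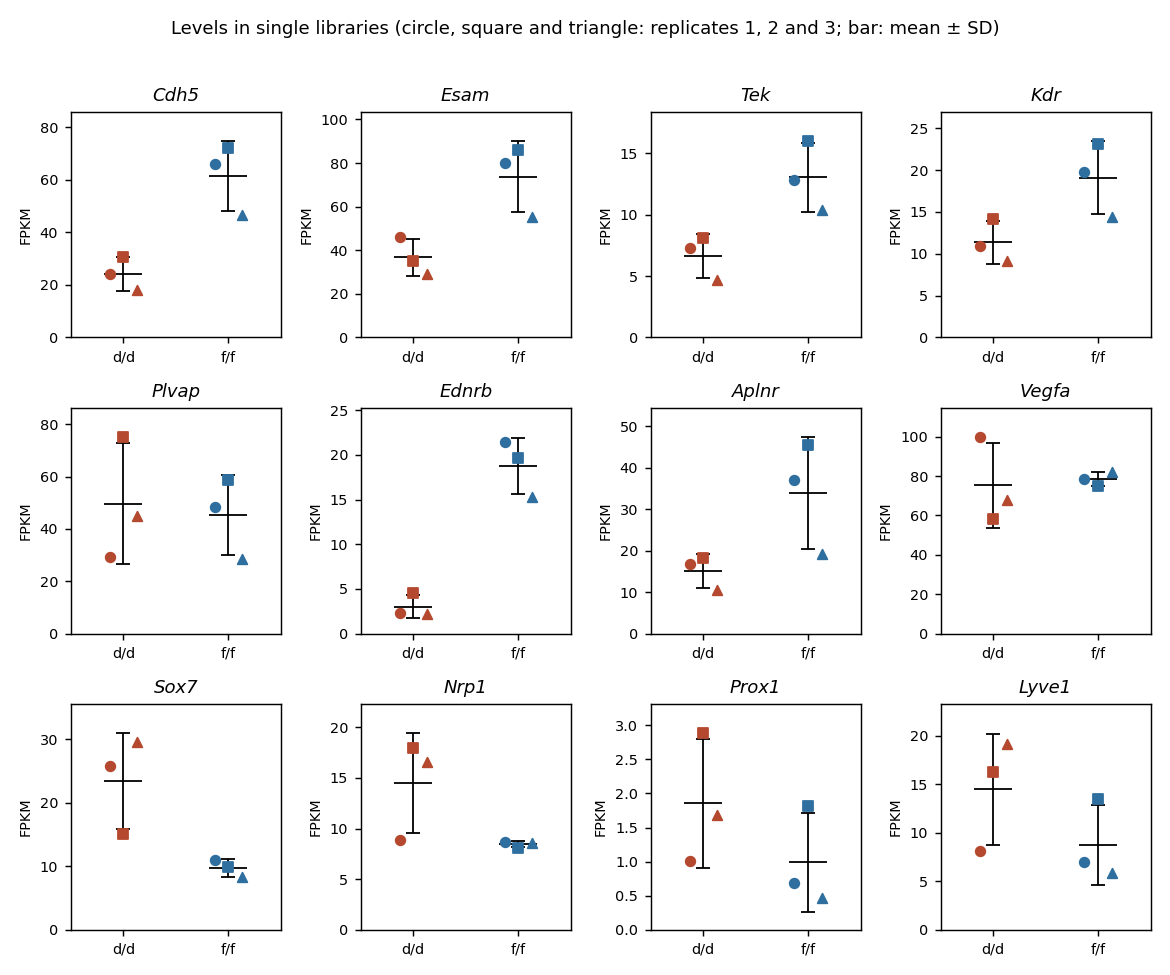
FPKM in single libraries for 12 of the genes, d/d left of f/f, with mean and SD over 3 libraries. Cdh5, Esam, Tek, Kdr, Ednrb and Aplnr are lower in every d/d library than in any f/f library, Sox7 and Nrp1 are higher, and Plvap, Vegfa, Prox1 and Lyve1 overlap.

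Both Tie receptor genes had lower values in every d/d library than in any f/f library, and neither passed the test. Tek, which encodes the angiopoietin receptor Tie2, was at 7.26, 8.10 and 4.66 FPKM in d/d libraries, against 12.8, 16.0 and 10.4 FPKM in f/f libraries (log2 fold change -0.88, 95% interval -1.47 to -0.29, limma adjusted p = 0.0803). Tie1, the gene of its partner receptor, was at 17.7, 18.6 and 11.4 FPKM in d/d libraries, against 29.6, 37.3 and 19.0 FPKM in f/f libraries (log2 fold change -0.79, adjusted p = 0.153). The ligand genes Angpt1 and Angpt2, which are not among the 38 genes, averaged 1.41 ± 0.285 and 3.37 ± 1.19 FPKM in d/d libraries, against 1.96 ± 0.216 and 3.51 ± 0.541 FPKM in f/f libraries (n = 3 each, limma adjusted p = 0.316 and 0.867), and they were named after their values were seen.

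Of the VEGF receptors, Kdr and Flt1 were lower in all d/d libraries and Nrp1 was higher, with none called. Kdr, the main signalling receptor gene for VEGF-A, was at 10.9, 14.1 and 9.08 FPKM in d/d libraries, against 19.8, 23.1 and 14.4 FPKM in f/f libraries (log2 fold change -0.70, 95% interval -1.25 to -0.14, limma adjusted p = 0.117). Flt1, whose product binds VEGF-A and placental growth factor and limits signalling, was at 7.67, 7.73 and 4.83 FPKM in d/d libraries, against 10.1, 11.7 and 9.75 FPKM in f/f libraries (log2 fold change -0.60, adjusted p = 0.124). The highest d/d value of Kdr was close to the value of f/f replicate 3. Nrp1, a co-receptor gene shared by VEGF and semaphorin signals and expressed in other cells as well, was at 8.87, 18.0 and 16.6 FPKM in d/d libraries, against 8.65, 8.09 and 8.57 FPKM in f/f libraries (log2 fold change 0.66, adjusted p = 0.176). In d/d replicate 1 it stood next to the f/f values, and without that library it passed (log2 fold change 0.95, adjusted p = 0.0211). Nrp2 was at 7.40, 26.3 and 5.41 FPKM in d/d libraries, against 11.7, 12.3 and 8.26 FPKM in f/f libraries, high in d/d replicate 2 alone.

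The start regions of these receptor genes are shown because Tek, Tie1 and Kdr had lower values in the same libraries and because the ETS factors among the 38 genes bind a GGAA core. RefSeq promoter windows on GRCm38.p6, from 250 bases before to 50 after a gene's start, were found for 21 of the 38 genes, 28 windows in all. Capitals mark AGGAA or, on the other strand, TTCCT. The windows are chr4:94739039-94739338 (plus strand) for Tek, chr4:118489800-118490099 (minus) for Tie1, chr5:75978406-75978705 (minus) for Kdr and chr14:103843652-103843951 (minus) for Ednrb, the receptor gene with the largest fall.
Tek: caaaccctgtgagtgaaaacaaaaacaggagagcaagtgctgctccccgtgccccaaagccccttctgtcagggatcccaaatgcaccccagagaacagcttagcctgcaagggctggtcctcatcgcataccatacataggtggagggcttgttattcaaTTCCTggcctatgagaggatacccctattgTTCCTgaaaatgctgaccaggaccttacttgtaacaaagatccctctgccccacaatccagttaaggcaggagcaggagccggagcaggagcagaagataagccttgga
Tie1: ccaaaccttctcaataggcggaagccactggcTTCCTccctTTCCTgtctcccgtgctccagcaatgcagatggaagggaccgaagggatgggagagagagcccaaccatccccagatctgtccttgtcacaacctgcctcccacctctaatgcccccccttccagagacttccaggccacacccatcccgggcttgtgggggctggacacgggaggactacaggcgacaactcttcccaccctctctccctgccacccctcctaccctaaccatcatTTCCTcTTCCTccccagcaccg
Kdr: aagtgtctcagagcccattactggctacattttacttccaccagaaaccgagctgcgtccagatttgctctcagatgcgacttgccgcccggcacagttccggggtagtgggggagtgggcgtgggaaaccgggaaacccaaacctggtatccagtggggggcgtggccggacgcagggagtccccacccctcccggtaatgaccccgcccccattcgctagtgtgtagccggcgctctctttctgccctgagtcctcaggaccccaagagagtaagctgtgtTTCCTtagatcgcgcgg
Ednrb: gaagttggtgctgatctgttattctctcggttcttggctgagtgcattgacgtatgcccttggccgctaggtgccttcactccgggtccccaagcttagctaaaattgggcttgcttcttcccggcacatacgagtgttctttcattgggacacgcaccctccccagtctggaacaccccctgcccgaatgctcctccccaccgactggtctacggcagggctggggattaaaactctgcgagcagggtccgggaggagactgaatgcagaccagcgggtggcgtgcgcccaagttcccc
The 5-letter motif occurred 2 times in the Tek window, 4 times in that of Tie1, 1 time in that of Kdr and 0 times in that of Ednrb. GGAA after a base other than A was not marked or counted. The Ednrb window does hold the core in that form, as in tctggaacac, so its 0 is for the 5-letter motif only. It was present in 22 of the 28 member windows (78.6%) and in 66.7% of all 32851 windows in the table, so it is common. A match of 5 letters is a description of the sequence and not a binding site.

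The VEGF ligand genes did not differ detectably, and their intervals leave room for changes. Vegfa, the gene of the principal angiogenic ligand, was at 99.7, 58.3 and 67.8 FPKM in d/d libraries, against 78.3, 75.0 and 82.3 FPKM in f/f libraries (log2 fold change -0.10, 95% interval -0.60 to 0.40, limma adjusted p = 0.801). Vegfb averaged 34.9 ± 14.0 FPKM in d/d and 36.6 ± 1.43 FPKM in f/f libraries, and Vegfc, the ligand gene of lymphatic growth, 2.73 ± 1.36 and 3.15 ± 0.657 FPKM (SD, n = 3 each, adjusted p = 0.785 and 0.698). Vegfa was the most abundant ligand in all 6 libraries. Its level was 2.97, 1.18 and 3.13 times that of Vegfb in d/d libraries, against 2.19, 2.09 and 2.15 times in f/f libraries, so the d/d libraries lay on both sides of the f/f libraries. Pgf, the placental growth factor gene, was at 1.63, 2.83 and 3.88 FPKM in d/d libraries, against 4.36, 3.84 and 11.5 FPKM in f/f libraries (log2 fold change -0.91, adjusted p = 0.234).

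Ednrb showed the largest log2 fold change of the 37 genes tested. Ednrb (ENSMUSG00000022122, chromosome 14, 103814625 to 103844402, minus strand, GRCm38) encodes the endothelin B receptor, which on endothelium couples to nitric oxide release and clears endothelin, and which other cell types also express. It was at 2.33, 4.51 and 2.24 FPKM in d/d replicates 1 to 3, against 21.4, 19.7 and 15.3 FPKM in f/f replicates 1 to 3. All 3 d/d libraries were far below the lowest f/f library. The means were 3.03 ± 1.29 FPKM in d/d and 18.8 ± 3.18 FPKM in f/f libraries (SD, n = 3 each), a ratio of 0.161. On the log2 scale it fell by 2.33 (SE 0.26), with a 95% interval of -2.95 to -1.71 and a limma adjusted p = 0.0109. The exact permutation p was again 0.1. It was lower under every alternative run, and the call ended without f/f replicate 1 (-2.23, adjusted p = 0.1), f/f replicate 2 (-2.29, 0.1) and f/f replicate 3 (-2.47, 0.0593).

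Other genes of endothelin signalling, from a supporting list, did not share that pattern throughout. Edn3, a ligand gene of the B receptor, fell to 0.633, 0.166 and 0.356 FPKM in d/d libraries, against 2.64, 2.42 and 2.45 FPKM in f/f libraries (log2 fold change -1.35, SE 0.19, limma adjusted p = 0.0195). Edn3 met the filter on low values through its f/f libraries alone, so its call is partly set by that filter. Edn1, the endothelial ligand gene, averaged 11.1 ± 3.73 FPKM in d/d and 10.5 ± 0.430 FPKM in f/f libraries, and Ednra, the A receptor gene, 13.8 ± 8.24 and 11.3 ± 0.794 FPKM (n = 3 each, adjusted p = 0.964 and 0.868). Ece1, the gene of the enzyme that activates endothelins, was at 332.5, 125.6 and 235.1 FPKM in d/d libraries, against 117.3, 92.2 and 202.0 FPKM in f/f libraries (adjusted p = 0.333). Of these, only Edn3 was without overlap. Edn1, Ednra and Ece1 were named after their values were seen.

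In the apelin pathway, which acts on vessel growth and tone, the receptor and ligand genes were below all f/f libraries without passing. Aplnr, the receptor gene, was at 16.8, 18.2 and 10.5 FPKM in d/d libraries, against 37.1, 45.4 and 19.1 FPKM in f/f libraries (log2 fold change -1.06, 95% interval -1.93 to -0.19, limma adjusted p = 0.123). Apln, its ligand gene, was at 1.97, 1.98 and 0.641 FPKM in d/d libraries, against 2.36, 2.36 and 6.55 FPKM in f/f libraries (log2 fold change -0.85, adjusted p = 0.246). Receptor and ligand differed in which f/f library was extreme, since f/f replicate 3 was lowest for Aplnr and highest for Apln. Apela, the gene of a further ligand of the apelin receptor, fell to 0.0793, 0.1 and 0.0847 FPKM in d/d libraries, against 5.94, 4.35 and 2.44 FPKM in f/f libraries (log2 fold change -2.21, SE 0.28, limma adjusted p = 0.0155). Apela met the filter on low values through its f/f libraries alone, so a difference was built into its being tested. Acvrl1, the gene of the BMP receptor ALK1, and S1pr1, the gene of a sphingosine-1-phosphate receptor, overlapped between genotypes, at -0.15 and -0.51 on the log2 scale (adjusted p = 0.707 and 0.420).

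**Figure D3:**
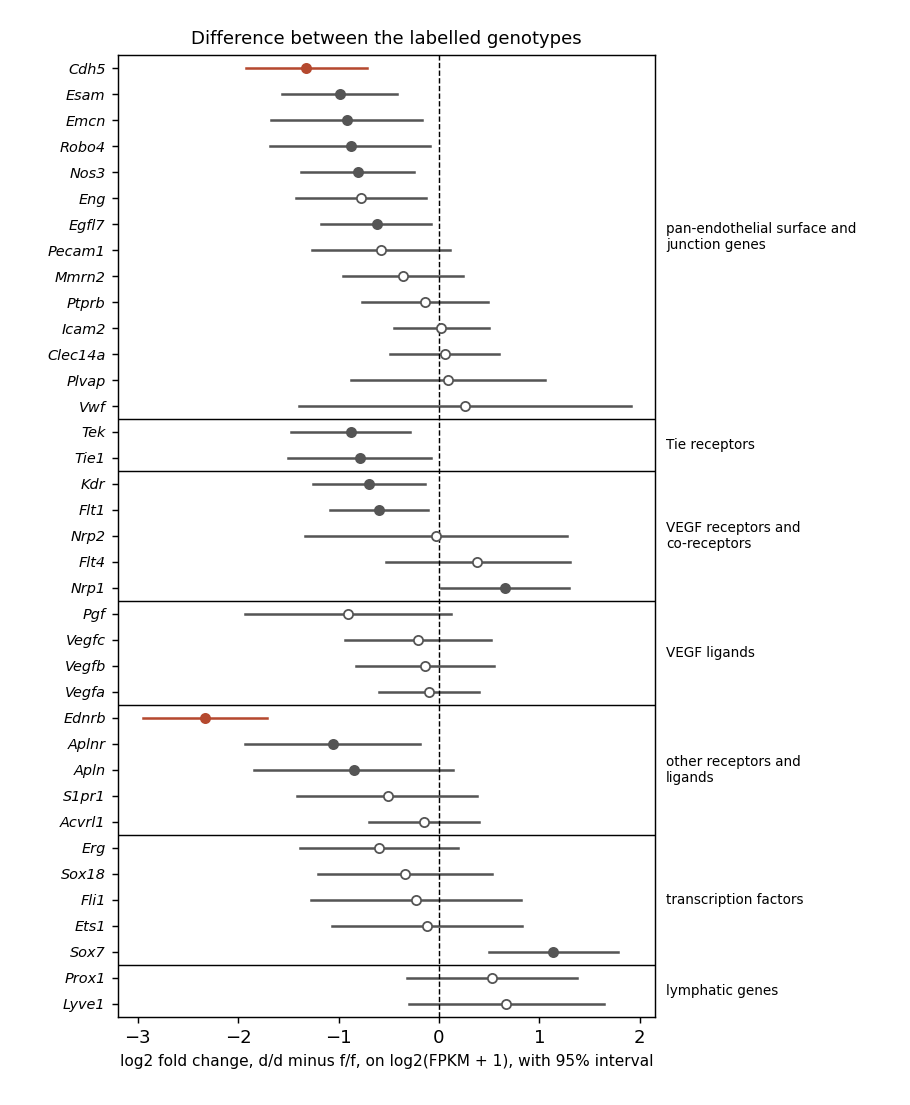
Log2 fold change, d/d minus f/f, with 95% interval for the 37 tested genes, grouped by role. Red marks the genes called by limma, Cdh5 and Ednrb, and filled points those whose genotypes did not overlap, among which Sox7 and Nrp1 are the ones to the right of 0.

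Of the 5 transcription factor genes, Sox7 stood apart in its direction. Sox7, a SOX factor gene of early endothelium that is also active in other cells (chromosome 14, 63943673 to 63950732, plus strand, GRCm38), was at 25.7, 15.0 and 29.5 FPKM in d/d libraries, against 11, 9.87 and 8.32 FPKM in f/f libraries. Every d/d library was above every f/f library, with d/d replicate 2 nearest to them. The log2 fold change of 1.14 (SE 0.26, 95% interval 0.50 to 1.78) just missed the threshold (limma adjusted p = 0.0542), and it passed without d/d replicate 2 (1.42, adjusted p = 0.0158) and with library weights (1.10, 0.0342). Its relative Sox18 averaged 30.9 ± 12.3 FPKM in d/d and 39.3 ± 13.5 FPKM in f/f libraries (n = 3 each, adjusted p = 0.585). The ETS factor gene Erg was at 7.5, 9.56 and 3.80 FPKM in d/d libraries, against 10.8, 12.8 and 8.11 FPKM in f/f libraries (log2 fold change -0.60, adjusted p = 0.295). Fli1 and Ets1, which leukocytes express as well, were highest of all 6 libraries in d/d replicate 2, at 12.5 and 20.0 FPKM, and lowest in d/d replicate 3, at 3.28 and 5.88 FPKM.

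Lyve1 and Prox1, the tested genes of lymphatic endothelium, and Flt4 had positive log2 fold changes, and none was called by limma. Their difference from the blood vessel genes was not tested. Lyve1, a hyaluronan receptor gene that some macrophages also express, was at 8.09, 16.3 and 19.1 FPKM in d/d libraries, against 6.99, 13.5 and 5.82 FPKM in f/f libraries (log2 fold change 0.67, 95% interval -0.30 to 1.64, limma adjusted p = 0.332). Prox1, the gene of the factor that sets lymphatic identity, was at 1.01, 2.88 and 1.68 FPKM in d/d libraries, against 0.683, 1.82 and 0.467 FPKM in f/f libraries (log2 fold change 0.53, adjusted p = 0.380). Flt4, the receptor gene for VEGF-C, was at 4.04, 11.1 and 7.05 FPKM in d/d libraries, against 4.74, 7.46 and 3.55 FPKM in f/f libraries (log2 fold change 0.38, adjusted p = 0.559). All 3 overlapped between genotypes, and replicate 2 was the highest f/f library for each. The ratio of Flt4 to Kdr was 0.372, 0.785 and 0.776 in d/d libraries, against 0.239, 0.324 and 0.246 in f/f libraries, without overlap. It was formed after the values were seen and was not tested. Of 8 further lymphatic genes, 5 could be tested and 0 were called by limma. All 5 had positive log2 fold changes, from 0.16 to 1.03, against 51.9% of all genes, and 4 overlapped between genotypes. At an unadjusted p under 0.05, 1 was higher, against 13.1% of all genes tested. It was Itga9, an integrin gene, at 11.2, 17.4 and 20.7 FPKM in d/d libraries, against 7.84, 8.78 and 8.88 FPKM in f/f libraries (limma adjusted p = 0.0795). Whether these genes are restricted to lymphatic cells here was not tested.

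Supporting lists hold vascular genes outside the 38. Of 26 tested further endothelial genes, 2 fell, 0 rose and 24 did not pass. The share that fell was 7.69%, against 3.81% of all genes tested. The median log2 fold change was -0.51, with 18 genes negative and 8 positive. Podxl, a sialomucin gene of the vessel lumen, fell to 23.1, 22.5 and 14.1 FPKM in d/d libraries, against 41.7, 41.1 and 38 FPKM in f/f libraries, and Cd34 fell to 67.4, 65.7 and 120.9 FPKM, against 178.7, 181.8 and 181.0 FPKM (limma adjusted p = 0.0388 and 0.0466). The next by p were Adgrl4 and Gata2, neither of them called, at -1.24 and -1.13 on the log2 scale (adjusted p = 0.0689 and 0.0775). Neither Podxl nor Cd34 is restricted to endothelium. Of 16 arterial, venous and Notch genes 0 were called. At an unadjusted p under 0.05, 6 were lower and 0 higher, against 13.6% and 13.1% of all genes tested. Their median log2 fold change was -0.05, with 10 genes negative and 6 positive. The venous factor gene Nr2f2, Hey2, Sema3g and Jag2 came nearest, at -0.70, -0.99, -0.55 and -0.94 on the log2 scale (adjusted p = 0.0516, 0.0576, 0.0705 and 0.0750). In f/f libraries Nr2f2 averaged 124.5 FPKM and Gata2 225.2 FPKM, against 69.1 FPKM for Pecam1. Whether the values of these genes come from vessels was not tested.

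Of 35 tested genes of VEGF, Tie, endothelin, BMP receptor, sphingosine-1-phosphate and hypoxia signalling outside the 38, 2 rose, 2 fell and 31 did not pass. The shares were 5.71% in each direction, near the 3.49% of all genes tested that rose and the 3.81% that fell. The 2 that fell were Apela and Edn3, given above. Sema3f, a gene of a semaphorin that binds neuropilin 2, rose to 57.2, 35.1 and 65.6 FPKM in d/d libraries, against 18.2, 17.0 and 13.4 FPKM in f/f libraries (limma adjusted p = 0.0246). Egln3, the gene of a hydroxylase that marks HIF proteins for destruction, rose to 7.30, 20.1 and 40.3 FPKM in d/d libraries, against 1.76, 2.14 and 1.62 FPKM in f/f libraries (adjusted p = 0.0384). With any of the f/f libraries left out, 0 genes of this list were called and 0 of the further endothelial list, and the same held with the replicate block. Those fits called few genes in the whole series, so this says little about the lists. With no filter on low values 1 gene of the signalling list rose and 0 of the further endothelial list fell.

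Mural genes are those of the pericytes and muscle cells that wrap small vessels. Of 9 such genes, 5 fell, 0 rose and 4 did not pass, with a median log2 fold change of -1.02 (55.6% lower, against 3.81% of all genes). Rgs5, a G protein regulator gene and pericyte marker, fell to 23.4, 38.4 and 18.3 FPKM in d/d libraries, against 116.9, 105.2 and 131.3 FPKM in f/f libraries (log2 fold change -2.16, SE 0.27, limma adjusted p = 0.0150). Ndufa4l2, Notch3 and Higd1b fell by 2.33, 0.98 and 1.45 on the log2 scale (adjusted p = 0.0253, 0.0346 and 0.0352). The fifth was Mcam, at 23.9, 34.0 and 40.9 FPKM in d/d libraries, against 71.9, 75.3 and 55.8 FPKM in f/f libraries (limma adjusted p = 0.0480). Pdgfrb and Kcnj8 overlapped, at -0.26 and -0.07 on the log2 scale (limma adjusted p = 0.715 and 0.920), and these and Mcam were named after their values were seen. Relative to Pecam1, Rgs5 was 0.623, 0.579 and 0.494 in d/d libraries, against 1.73, 1.22 and 2.44 in f/f libraries. The count of lower mural genes was 0 without any 1 f/f library, 0 with the replicate block, 2 with no filter on low values, 3 without d/d replicate 1 and 3 with a spread for each genotype. The fits without an f/f library called only 0, 0 and 20 genes lower in the whole series and the block 49, so a 0 there says little about this list. At an unadjusted p under 0.05, 7 of the 9 were lower in the main fit (13.6% of all genes tested). The number was 6 without any 1 f/f library and 7 with the block.

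**Figure D4:**
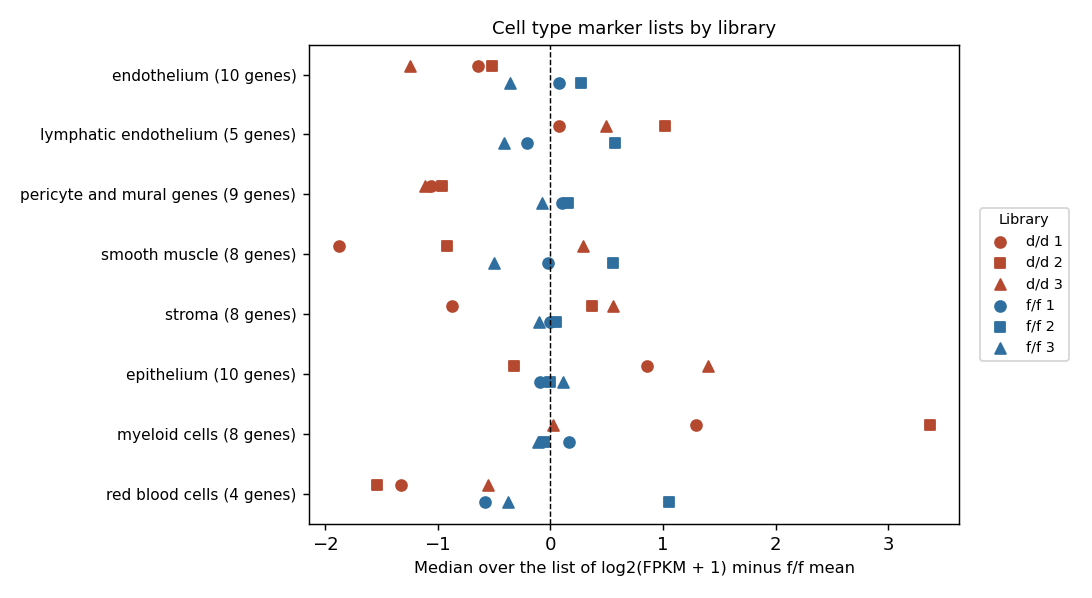
Each point is the median over a marker list of log2(FPKM + 1) minus the f/f mean in a library, d/d above f/f within each list. The mural list and the endothelial list, whose 10 genes all belong to the 38, are lower in every d/d library than in any f/f library, whereas the median of all 37 tested genes (not drawn) overlaps, at -0.03 in d/d replicate 2 and -0.32 in f/f replicate 3. The red blood cell list is below 0 in all 3 d/d libraries but overlaps, as do the lymphatic, muscle, stromal, epithelial and myeloid lists.

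Marker lists of the tissue's cells were set beside these values. Of all genes tested, 3.81% were called lower and 3.49% higher, and 13.6% and 13.1% at an unadjusted p under 0.05. At that unadjusted threshold the endothelial list had 8 lower and 0 higher, the epithelial list 0 and 2, and the smooth muscle list 1 and 0. The myeloid list had 0 lower and 3 higher, the lymphocyte and natural killer list 3 and 0, and the mesothelial list 1 and 1. The endothelial list is no independent measure, since its 10 genes are all among the 38 and leave out Vwf, Plvap and Icam2, which have positive log2 fold changes. All 10 were detected in every library, Cdh5 was called lower, and their sum was 245.8 to 393.3 FPKM in d/d and 436.5 to 672.6 FPKM in f/f libraries. Epithelial markers summed to 885.0 to 3388 FPKM in d/d and 1290 to 1480 FPKM in f/f libraries, with 1 of 10 called higher, Epcam. Smooth muscle markers summed to 1135 to 4782 FPKM in d/d and 2507 to 5993 FPKM in f/f libraries, with 1 of 8 called lower, Smtn (limma adjusted p = 0.0499). Stromal markers summed to 1885 to 4516 FPKM in d/d and 3031 to 3338 FPKM in f/f libraries, with 0 of 8 called by limma (2 lower and 0 higher at an unadjusted p under 0.05). Myeloid markers summed to 1063, 4698 and 359.4 FPKM in d/d replicates 1 to 3 and to 284.5 to 391.6 FPKM in f/f libraries, with 1 of 8 called higher, Cd68. Of 6 lymphocyte and natural killer genes tested Prf1 was called lower, and the list summed to 7.19, 65.7 and 2.70 FPKM in d/d replicates 1 to 3, against 19.3 to 21.5 FPKM in f/f libraries. The sum hides a split within the list. The natural killer genes Ncr1, Klrb1c and Prf1 were lower in every d/d library than in any f/f library (17.8% of all genes tested). In d/d replicate 2, Cd3d, Cd2 and Cd3e were at 24.2, 19.2 and 15.6 FPKM. These genes were named after their values were seen. The myeloid and lymphocyte sums were both highest in d/d replicate 2. Of the 38 genes, Pecam1, Fli1, Ets1, Icam2, Lyve1, Nrp1 and S1pr1 are also expressed by leukocytes. Among the d/d libraries, Icam2 was lowest in replicate 2 and Lyve1 highest in replicate 3, while the other 5 were highest in replicate 2. The same held for 31 of all 37 members tested, so it does not set these genes apart. Red blood cell genes summed to 24.2 to 76.7 FPKM in d/d and 68.2 to 214.8 FPKM in f/f libraries, with 0 of 4 called (3 lower and 0 higher at an unadjusted p under 0.05). Platelet genes had 0 of 2 called (1 lower at an unadjusted p under 0.05), and of 2 mesothelial genes tested Wt1, which uterine stroma also expresses, was called lower. Prf1 met the filter on low values through its f/f libraries alone. These calls were unstable, as were those of the whole series. Calls in the epithelial, stromal, smooth muscle, leukocyte, blood cell and mesothelial lists fell to 0 with any f/f library left out. With the replicate block they were 0 too. Over all genes, the fits without f/f replicates 1, 2 and 3 called 0, 0 and 21 higher and 0, 0 and 20 lower. The replicate block called 51 higher and 49 lower, so 0 in short lists says little about them. The epithelial count was 5 without d/d replicate 2 and 0 without d/d replicate 1. The smooth muscle count was 1 with upper quartile scaling and without d/d replicate 3, and 0 under the other alternatives. The part of cell composition in the values of the 38 genes was not tested.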

How the data were processed

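RNA of whole mouse uterus was measured in 6 libraries, 3 labelled d/d and 3 labelled f/f. Per the labels' protocols, TRIzol served for extraction and a TruSeq kit for the libraries. The submitters' processing notes list Cufflinks 2.2.1, HISAT2 2.2.1 and the builds mm9 and mm10. Which build served for what, which annotation and settings were used, and whether strand was read, is not given there. The authors deposited a value per gene, taken as FPKM from the values and the tool, since the headers name no unit. Keeping the row with the highest mean for each symbol removed 36 rows. Genes at 1 FPKM or more in at least 3 libraries (12979) entered a limma fit (3.58.1, under R 4.3.3) of log2(FPKM + 1), with genotype in the model and an intensity trend, and the fitting script was tested on simulated data. Exact permutation tests used scipy 1.17.1. Locations are those of GENCODE M21 (GRCm38), matched by gene ID. Any of the 38 genes could be named, and of each supporting list up to 4 genes in order of p, besides Mettl3. The members and lists were chosen with earlier results of these data known. Alternatives were a pseudocount of 0.1, no filter, upper quartile scaling, weights per library, a replicate block, each library left out and, chosen after seeing the data, a spread for each genotype.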

Additional observations from a re-analysis of the deposited data

How the results depend on the processing

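The depth of the libraries is unknown, so no counting error can be given, and values below 1 FPKM are the least certain. Over all genes, limma called 453 higher and 494 lower. Without each library in turn the counts ran from 0 to 649 higher and from 0 to 738 lower; with no f/f replicate 1 they were 0 and 0, against 1119 and 1067 at an unadjusted p under 0.05. With no filter 291 genes were higher. Whether the replicate numbers pair the libraries is not known. Over all genes, deviations of same-numbered d/d and f/f libraries correlated at -0.02, 0.02 and -0.021, and no library correlated best with its own number. With 3 libraries per genotype this cannot exclude pairing. Among the members, replicate 2 was most often highest and replicate 3 most often lowest in both genotypes. With the replicate block 51 genes were higher and 49 lower, and the calls among the members were the same. At an unadjusted p under 0.05 the block gave 17 members lower and 1 higher, against 13 and 2 without it. Over all genes it gave 1509 lower and 1547 higher, against 1760 and 1700.

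Of the members, 0 were higher and 2 lower. Leaving out each library gave 0 to 1 higher and 0 to 4 lower. Library weights gave 1 higher, and 1 was lower with no filter and 1 with a spread for each genotype. The pseudocount changed no call among the members. Signs turned only in members that did not pass. Upper quartile scaling turned Icam2 (-0.05) and Clec14a (-0.01), and library weights turned Plvap (-0.21), Icam2 (-0.02) and Vegfa (0.04). Across the fits without a library, the log2 fold change ran from -0.32 to 0.92 for Vwf, -0.25 to 0.41 for Plvap, -0.67 to 0.16 for Fli1, -0.50 to 0.30 for Ets1, -0.15 to 0.14 for Icam2, -0.37 to 0.03 for Ptprb, -0.14 to 0.23 for Clec14a, -0.32 to 0.07 for Vegfa, -0.43 to 0.15 for Vegfb, -0.47 to 0.07 for Vegfc and -0.66 to 0.39 for Nrp2. It stayed between -1.50 and -1.13 for Cdh5, between -2.58 and -2.20 for Ednrb and between 0.96 and 1.42 for Sox7. The cause of these differences was not tested.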

Other observations

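Some vessel genes outside the 38 had too low a level to be tested and were named after their values were seen. Edn2, an endothelin ligand gene, was at 0.413, 1.17 and 0.981 FPKM in d/d replicates 1 to 3, against 0.0455 FPKM in f/f replicate 2 and 0.182 FPKM in f/f replicate 3, with f/f replicate 1 listed at 0. Angpt4, an angiopoietin gene, was at 0.349, 3.90 and 3.15 FPKM in d/d libraries, against 0.456, 0.772 and 0.533 FPKM in f/f libraries. Ccl21a, a chemokine gene of lymphatic endothelium, was at 6.50 FPKM in d/d replicate 2 and 3.31 FPKM in f/f replicate 2 and was listed at 0 in the other libraries. Fabp4, a lipid carrier gene of capillaries and fat cells, was tested and did not pass (limma adjusted p = 0.179), at 54.0, 14.4 and 2.74 FPKM in d/d libraries, against 1.28, 4.48 and 0.338 FPKM in f/f libraries.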
